A study of Homo sapiens with 6 samples.

Results

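The 8 genes described here form the death receptor arm of apoptosis. They are the receptors FAS, TNFRSF10A and TNFRSF10B, the adaptor FADD, the initiator caspase CASP8 and the inhibitors CFLAR, BIRC2 and XIAP. They were chosen by name, and each was read from the single row of the deposited table that carries its symbol alone, 8 of the 24494 genes named by such rows. Expression was measured on arrays in 6 xenografts of 1205Lu, an established line of human metastatic melanoma cells, grown under the skin of NSG mice for about 6 weeks. In 3 tumours the grafted cells carried a short hairpin RNA against Shp2 (Shp2 shRNA), and in 3 they carried a non-target hairpin (non-target). SHP2, encoded by PTPN11, is a tyrosine phosphatase that links receptor tyrosine kinases to RAS and ERK, and the comparison asks which transcripts differ when it is depleted in a growing tumour.

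All tumours share the cell line and the host, so each group rests on 1 line. The hairpin acts in the grafted cells, while the mouse host supplies vessels, fibroblasts and myeloid cells and, in this strain, no mature lymphocytes or natural killer cells. The labels number the samples within a group but leave unsaid if every tumour grew in a mouse of its own, so a p-value here reflects only how far these samples spread, which may be technical. The hairpin sequences are not used here.

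Death receptors are cell surface proteins whose inner part carries a death domain. When their ligands, made mainly by immune cells, cluster them, FADD binds the receptor and draws in procaspase-8, which cuts and activates itself and then the executioner caspases. CFLAR, a relative of caspase-8 without its enzymatic activity, competes for FADD, BIRC2 is a ubiquitin ligase that keeps receptor complexes in a survival state, and XIAP blocks active caspases directly. In melanoma the pathway is known as a route by which cytotoxic cells and TRAIL kill tumour cells, and low receptor or caspase-8 levels are a known form of resistance.

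PTPN11 was measured first as a check of the labels. Its log2 values were 6.92, 6.34 and 6.88 in Shp2 shRNA tumours 1 to 3, against 8.47, 8.76 and 9.05 in non-target tumours 1 to 3. The groups were far apart, and PTPN11 in Shp2 shRNA tumours was 24.2% of the non-target level (95% interval 17.3 to 33.7%, limma adjusted p = 0.034). It was the only gene past the adjusted threshold of 0.05 among the 12541 genes that passed a filter on low values (0.00797% of them). Its adjusted p was 0.021 without non-target array 1 and missed the threshold, at 0.096 to 0.27, without any other single array. It was 0.079 without the filter and 0.077 after quantile normalization. The exact two-sided permutation p was 0.1, the smallest that 3 samples against 3 allow.

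None of the 8 genes passed the test. FAS, TNFRSF10B, FADD and XIAP were 1.20 to 1.27 times as high in Shp2 shRNA as in non-target tumours, and CASP8, CFLAR and BIRC2 differed by 0.03 log2 units or less, with TNFRSF10A between them at 0.13. Of the 8, 6 passed the filter, which asks for a log2 value above 4 in at least 3 arrays. TNFRSF10A and CASP8 did not, and their values come from a fit without it. The adjusted limma p was 1.00 for each of the 8, and 0 had an unadjusted p under 0.05, against 2.54% of the 12541 genes. The median difference (Shp2 shRNA minus non-target) was 0.27 over the 6 kept genes and 0.20 over all 8, against 0.05 over the 12541 genes and 0.03 over the 24494 unfiltered ones. Without non-target array 1 the median was 0.13 over the 6 kept genes, against -0.01 over all kept genes. Without Shp2 shRNA array 2 it was 0.17, against 0.02 over all kept genes. All 8 differences were above 0, where 62.0% of the kept and 55.8% of the unfiltered genes were too. After each array was centred on its median, 5 of the 8 remained above 0, against 51.4% of all kept genes. The groups did not overlap for 2 of the 6 kept genes, FAS and XIAP, both higher in Shp2 shRNA, which held in that direction for 3.86% of the 12541 genes.

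**Figure D1:**
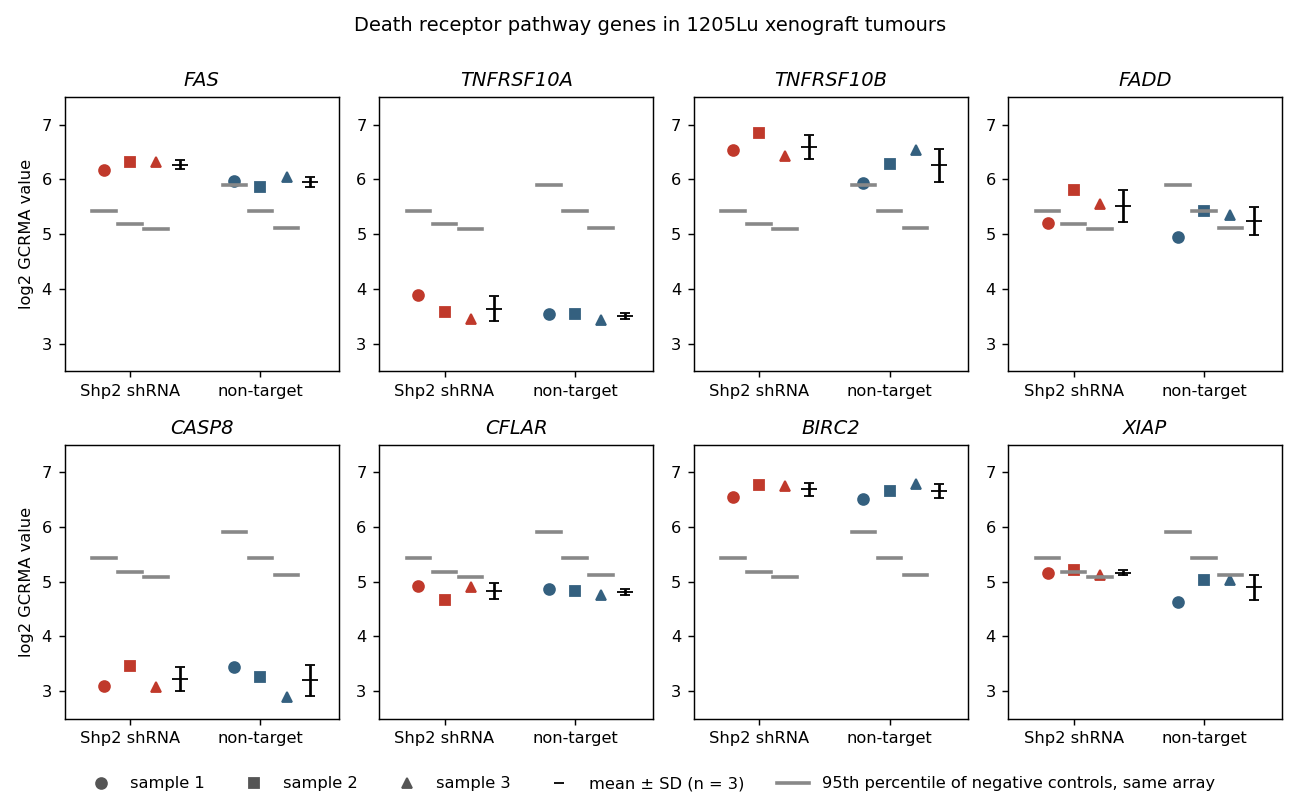
Log2 GCRMA values of the 8 genes in each tumour, Shp2 shRNA left and non-target right in each panel; marker shapes give the sample number, black bars the mean ± SD (n = 3), and grey ticks the background level of each array (the 95th percentile of its negative controls). FAS and XIAP show separated groups, while TNFRSF10A, CASP8 and CFLAR lie below the grey ticks in all 6 arrays.

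The files used here hold no detection calls, so each level was set against 3575 negative control features. The background level of an array is their 95th percentile, which was 5.43, 5.18 and 5.09 in Shp2 shRNA arrays 1 to 3 and 5.90, 5.43 and 5.12 in non-target arrays 1 to 3. FAS, TNFRSF10B and BIRC2 exceeded it in all 6 arrays, FADD in 4 and XIAP in 2. TNFRSF10A, CASP8 and CFLAR exceeded it in 0 arrays. A difference of such a row is read here as a difference in signal, not as a change of a transcript known to be detected.

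FAS, the receptor for FAS ligand, had the smallest p of the 8. Its log2 values were 6.17, 6.32 and 6.32 in Shp2 shRNA tumours, against 5.96, 5.86 and 6.05 in non-target tumours. Every Shp2 shRNA value lay above every non-target value, with a gap of 0.12 between the lowest and the highest. The means were 6.27 ± 0.09 in Shp2 shRNA and 5.96 ± 0.09 in non-target tumours (SD, n = 3 each), a difference of 0.31 (SE 0.15, 95% interval -0.03 to 0.65) or 1.24-fold on the linear scale. The unadjusted limma p was 0.066, rank 462 among the 12541 genes. It was 0.014 in ordinary least squares and 0.041 with limma array weights, whose estimation stopped before it converged, with adjusted p of 1.00 in both. Within each group FAS varied little, and the difference lay between 0.26 and 0.37 in every alternative run, whichever array was left out. In bulk tumours, the share of cells making a transcript and its amount per cell cannot be told apart, here and for the genes below.

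TNFRSF10B, the TRAIL receptor DR5, had the largest difference and the largest spread. Its log2 values were 6.54, 6.84 and 6.42 in Shp2 shRNA tumours, against 5.93, 6.29 and 6.54 in non-target tumours. Non-target tumour 3 lay level with Shp2 shRNA tumour 1 and above Shp2 shRNA tumour 3, so the groups overlapped. The difference was 0.34 (SE 0.20, 95% interval -0.10 to 0.79), or 1.27-fold, with an unadjusted limma p of 0.12. Non-target tumour 1 was the lowest of the 6, and without that array the difference was 0.18. Without non-target tumour 3 it was 0.49, with an unadjusted limma p of 0.037 and an adjusted p of 0.63.

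TNFRSF10A, the other TRAIL receptor with a full death domain (DR4), gave a signal within the range of the negative controls. Its values were 3.89, 3.58 and 3.45 in Shp2 shRNA tumours, against 3.54, 3.55 and 3.44 in non-target tumours. Only Shp2 shRNA tumour 1 stood off, and without it the difference of 0.13 (95% interval -0.23 to 0.49) was 0.0032. Between 70.0% and 82.5% of negative control features lay below it, depending on the array. The file describes its row by a transcript at chr8:23047965-23082639 on the minus strand (GRCh37). Whether TNFRSF10A and TNFRSF10B differ in their response was not tested.

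FADD, the adaptor that joins FAS and the TRAIL receptors to caspase-8, differed between the groups by about as much as the samples of a group spread (SD 0.30 in Shp2 shRNA and 0.26 in non-target tumours). Its values were 5.20, 5.80 and 5.54 in Shp2 shRNA tumours, against 4.95, 5.43 and 5.36 in non-target tumours. In both groups tumour 1 was lowest and tumour 2 highest, and Shp2 shRNA tumour 1 lay below non-target tumours 2 and 3. The difference was 0.27 (SE 0.20, 95% interval -0.19 to 0.72), with an unadjusted limma p of 0.22. It was 0.12 without non-target tumour 1 and 0.42 without Shp2 shRNA tumour 1.

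CASP8, the initiator caspase of the pathway, gave a signal within the range of the negative controls, 65.6% to 78.0% of which lay below it. Its values were 3.10, 3.47 and 3.08 in Shp2 shRNA tumours, against 3.45, 3.26 and 2.90 in non-target tumours. The groups overlapped over most of their range. The difference was 0.01 (SE 0.19), and the 95% interval of -0.41 to 0.44 leaves room for a level between 0.75 and 1.36 times the non-target one. It changed sign when Shp2 shRNA tumour 2 was left out (-0.11) or non-target tumour 3 (-0.14).

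CFLAR, which encodes FLIP, was the steadiest of the 8, with an SD of 0.09 over the 6 arrays. Its values were 4.92, 4.67 and 4.90 in Shp2 shRNA tumours, against 4.86, 4.82 and 4.75 in non-target tumours. The difference was 0.02 (SE 0.15, 95% interval -0.33 to 0.36). Its row lay below the background level in all arrays, with 87.6% to 94.0% of the negative controls below it, so a steady value here is a steady signal near background. The antisense gene CFLAR-AS1 has a row of its own, kept out by the filter, with a difference of -0.01.

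The inhibitors of apoptosis bind caspases or receptor complexes through their BIR domains. BIRC2, which encodes cIAP1, was well above the negative controls and had values of 6.55, 6.77 and 6.75 in Shp2 shRNA tumours, against 6.51, 6.66 and 6.78 in non-target tumours. The highest and the lowest of the 6 were both non-target tumours. The difference was 0.03 (SE 0.16), with a 95% interval of -0.32 to 0.39, or 0.80 to 1.31 times the non-target level. Of CASP8, CFLAR and BIRC2, whose differences were all near 0, only BIRC2 exceeded the background level in every array, and its interval still holds a difference of the size seen for FAS.

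XIAP, which binds and blocks active caspases, had values of 5.16, 5.21 and 5.12 in Shp2 shRNA tumours, against 4.63, 5.03 and 5.03 in non-target tumours. The groups did not overlap, by a gap of 0.09, and the Shp2 shRNA values were close together (SD 0.04) while non-target tumour 1 lay below the others. XIAP exceeded the background level only in Shp2 shRNA arrays 2 and 3, and 84.8% to 95.1% of negative controls lay below it. The separation is thus one of a signal near background. The difference was 0.27 (SE 0.17, 95% interval -0.11 to 0.64), or 1.20-fold, with an unadjusted limma p of 0.15. Without non-target tumour 1 it was 0.13. The row is described by a transcript at chrX:122993877-123047829 on the plus strand (GRCh37). The antisense gene XIAP-AS1 has a row of its own below the filter, with values of 2.97, 3.14 and 3.00 in Shp2 shRNA and 2.86, 2.77 and 2.71 in non-target tumours. Those groups did not overlap, which held in that direction for 3.87% of the 24494 unfiltered genes. Below the XIAP-AS1 signal lay 57.0% to 72.4% of negative controls.

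A technical measure of the arrays moved with several of these values. Positive minus negative control features, a measure of the contrast of an array, was 3.76, 4.01 and 4.01 in Shp2 shRNA arrays 1 to 3 and 3.45, 3.86 and 3.96 in non-target arrays 1 to 3. Non-target array 1 had the lowest contrast, and TNFRSF10B, FADD, BIRC2 and XIAP each had their lowest value there. With the contrast as a covariate, the difference was 0.08 for FADD, 0.19 for TNFRSF10B and 0.15 for XIAP, against 0.28 for FAS and -0.06 for BIRC2. These were all lower than without the covariate. TNFRSF10A, CASP8 and CFLAR, below the background level in all arrays, were higher with it, at 0.21, 0.10 and 0.06. Without both arrays numbered 1, the difference was 0.37 for FAS, 0.28 for FADD, 0.21 for TNFRSF10B and 0.13 for XIAP. The part of array contrast in these differences was not tested further.

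**Figure D2:**
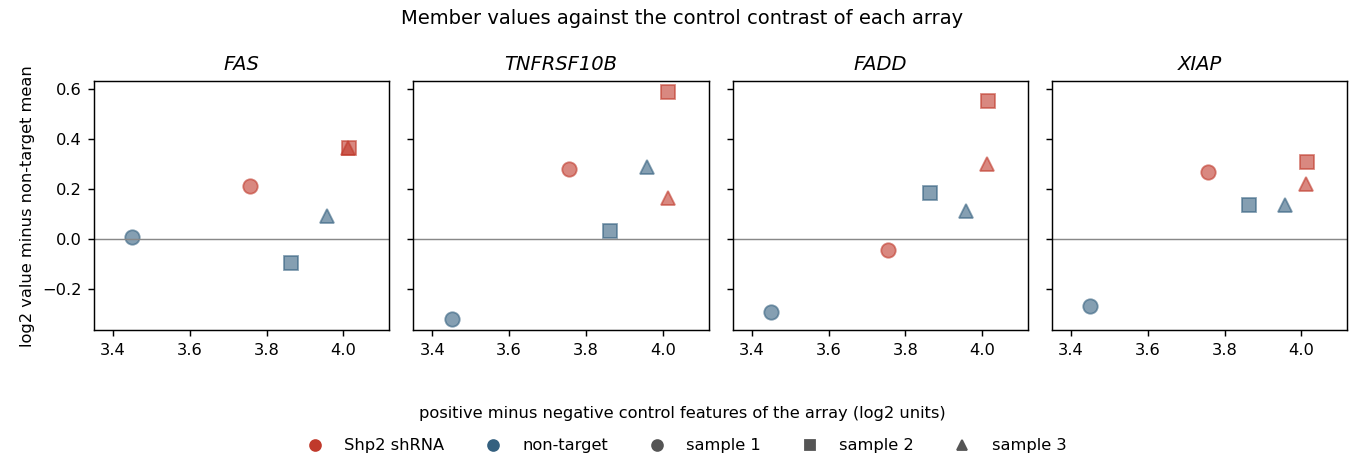
Log2 value minus the non-target mean (vertical) against the positive minus negative control contrast of each array in log2 units (horizontal) for FAS, TNFRSF10B, FADD and XIAP, with Shp2 shRNA in red, non-target in blue and marker shapes for sample numbers (Shp2 shRNA samples 2 and 3 coincide for FAS). Non-target array 1, at a contrast of 3.45, holds the lowest value of TNFRSF10B, FADD and XIAP but not of FAS.

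Across all alternatives run, FAS, TNFRSF10A, TNFRSF10B, FADD and XIAP kept a difference above 0, and CASP8, CFLAR and BIRC2 took both signs. FAS spanned the narrowest range of those 5 genes. TNFRSF10B and FADD moved most with single arrays, from 0.18 to 0.49 and from 0.12 to 0.42. No alternative brought any of the 8 genes past the adjusted threshold, and the smallest adjusted limma p in any of them was 0.63.

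**Figure D3:**
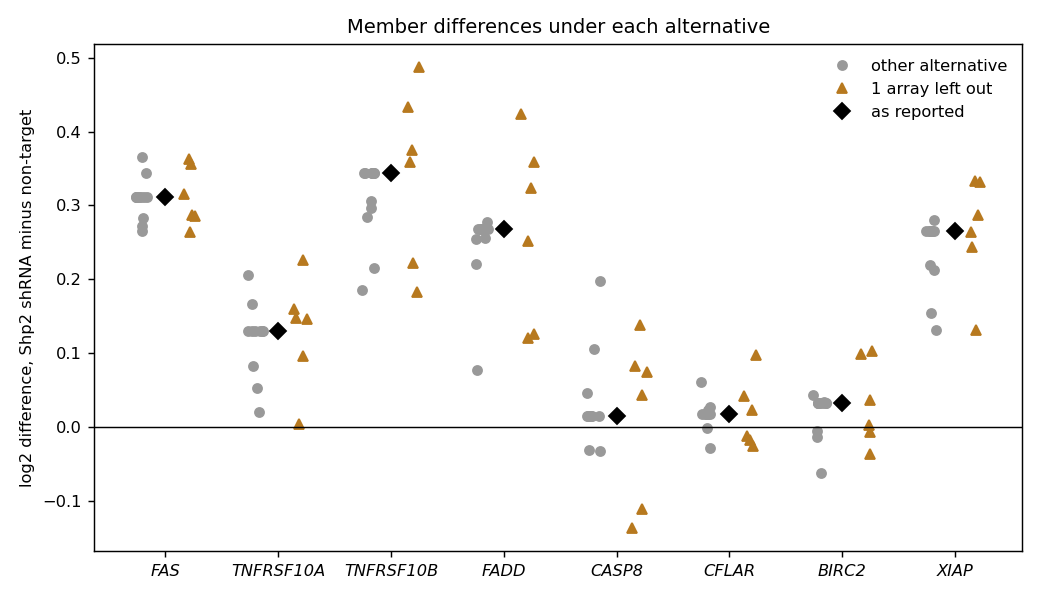
Log2 difference (Shp2 shRNA minus non-target, vertical) of each of the 8 genes as reported (black diamonds), with 1 array left out (brown triangles) and under the other alternatives (grey circles). FAS stays between 0.26 and 0.37, while CASP8, CFLAR and BIRC2 lie on both sides of 0.

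By profile over the 6 arrays, TNFRSF10B, the most variable of the 8 (SD 0.30), was closest to MRPL19, a mitochondrial ribosomal protein gene, TWSG1, a BMP-binding protein gene, and KIF11, a mitotic motor gene. Likeness was the root mean square difference of mean-centred log2 values, which was 0.05 for each. Their differences were 0.39, 0.31 and 0.40, and the 6 points share the array contrast above. Among the 8 genes the closest kept pair was TNFRSF10B and XIAP, at 0.13.

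The other genes of the pathway were taken from 4 lists of 51 genes, all in the table, of which 37 passed the filter. Of these 37, 0 rose and 0 fell at the adjusted threshold, 1 had an unadjusted p under 0.05, and 23 differences were above 0. Over all 12541 kept genes the shares were 0.00797% past the adjusted threshold, 2.54% with an unadjusted p under 0.05 and 62.0% above 0. The counts for the 37 were thus near these shares. The median difference of the 37 was 0.05, the same as over all kept genes to 2 decimals.

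The ligand genes FASLG, TNFSF10 (TRAIL) and TNF lay below the background level in all 6 arrays and did not pass the filter. Of 13 ligands, decoys and other death receptors, 8 were kept, 0 rose and 0 fell. TNFRSF11B, which encodes osteoprotegerin, a soluble decoy for RANK ligand and TRAIL, had 8.01, 8.21 and 8.54 in Shp2 shRNA tumours, against 7.81, 8.01 and 7.93 in non-target tumours. The groups touched, with a gap of 0.0012, the only one of the 37 without overlap. Of all kept genes, 3.86% had Shp2 shRNA above non-target without overlap. The TNFRSF11B difference was 0.34 (SE 0.18), and 0.19 without Shp2 shRNA tumour 3. The TNF receptor gene TNFRSF1A differed by 0.14 (SE 0.18), TNFRSF21, which encodes a further death domain receptor, by 0.18 (SE 0.25) and the TRAIL decoy gene TNFRSF10C, below the background level throughout, by -0.19 (SE 0.21). The TNFRSF10C difference was -0.00080 without Shp2 shRNA tumour 1 and -0.42 without Shp2 shRNA tumour 3.

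Of 14 adaptors, kinases and modulators of receptor complexes, 13 were kept, 0 rose and 0 fell, and the median difference was 0.01. RIPK1, the kinase that chooses between survival and death downstream of TNF receptors, had 6.05, 6.48 and 6.22 in Shp2 shRNA tumours, against 5.82, 5.56 and 6.21 in non-target tumours. Only non-target tumour 3 reached the Shp2 shRNA range, and the difference was 0.39 (SE 0.20), or 0.23 without non-target tumour 2. The deubiquitinase gene CYLD differed by 0.40 (SE 0.24), the NF-kB feedback gene TNFAIP3 by 0.31 (SE 0.23) and TRAF2, the partner of BIRC2 in receptor complexes and below the background level in every array, by -0.18 (SE 0.16). CYLD and TNFAIP3, like FADD, were lowest in non-target tumour 1 and differed by 0.14 and 0.13 without it. TNFAIP3 differed by 0.14 without Shp2 shRNA tumour 3.

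Of 14 other caspase and apoptosome genes, 9 were kept, 0 rose and 0 fell. APAF1, the scaffold of the apoptosome, differed by 0.29 (SE 0.22), BID, the BH3 protein that caspase-8 cuts, by 0.15 (SE 0.19), CASP2, a strongly conserved caspase gene, by 0.12 (SE 0.18) and cytochrome c, CYCS, below the background level in every array, by -0.15 (SE 0.19). APAF1 differed by 0.09 without non-target tumour 1, and CYCS by -0.02 without Shp2 shRNA tumour 2. CASP10, the closest relative of CASP8, lies between CFLAR and CASP8 in the RefSeq gene order (GRCh38.p14) and, like CASP8, did not pass the filter. Its difference was -0.08, at a signal below the background level in all arrays. The groups did not overlap, with Shp2 shRNA lower by a gap of 0.04. Of the unfiltered genes, 7.28% had groups without overlap in either direction.

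Of 10 other inhibitor of apoptosis genes and antagonists, 7 were kept, 0 rose and 0 fell. BIRC3, which encodes cIAP2 and is the neighbour of BIRC2 in the same gene order, had the largest difference of the 37. Its values were 5.15, 5.68 and 6.13 in Shp2 shRNA tumours, against 4.11, 5.15 and 5.20 in non-target tumours. Shp2 shRNA tumour 1 lay just below non-target tumours 2 and 3, and non-target tumour 1 lay far below all others. The difference was 0.83 (SE 0.32, 95% interval 0.11 to 1.56), or 1.78-fold, with an unadjusted limma p of 0.028 and an adjusted p of 1.00. The BIRC3 difference was 0.47 without non-target tumour 1 and 0.42 with the contrast covariate. BIRC2 differed by 0.03 over all arrays, by -0.037 without non-target tumour 1 and by -0.063 with the covariate. The difference between the neighbours was not tested. NAIP differed by -0.39 (SE 0.20) and the septin gene SEPT4 by -0.13 (SE 0.18), both below the background level in all arrays, and BIRC5, which encodes survivin, by 0.22 (SE 0.25). NAIP differed by -0.24 without non-target tumour 1, and SEPT4 by -0.0041 without non-target tumour 2.

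**Figure D4:**
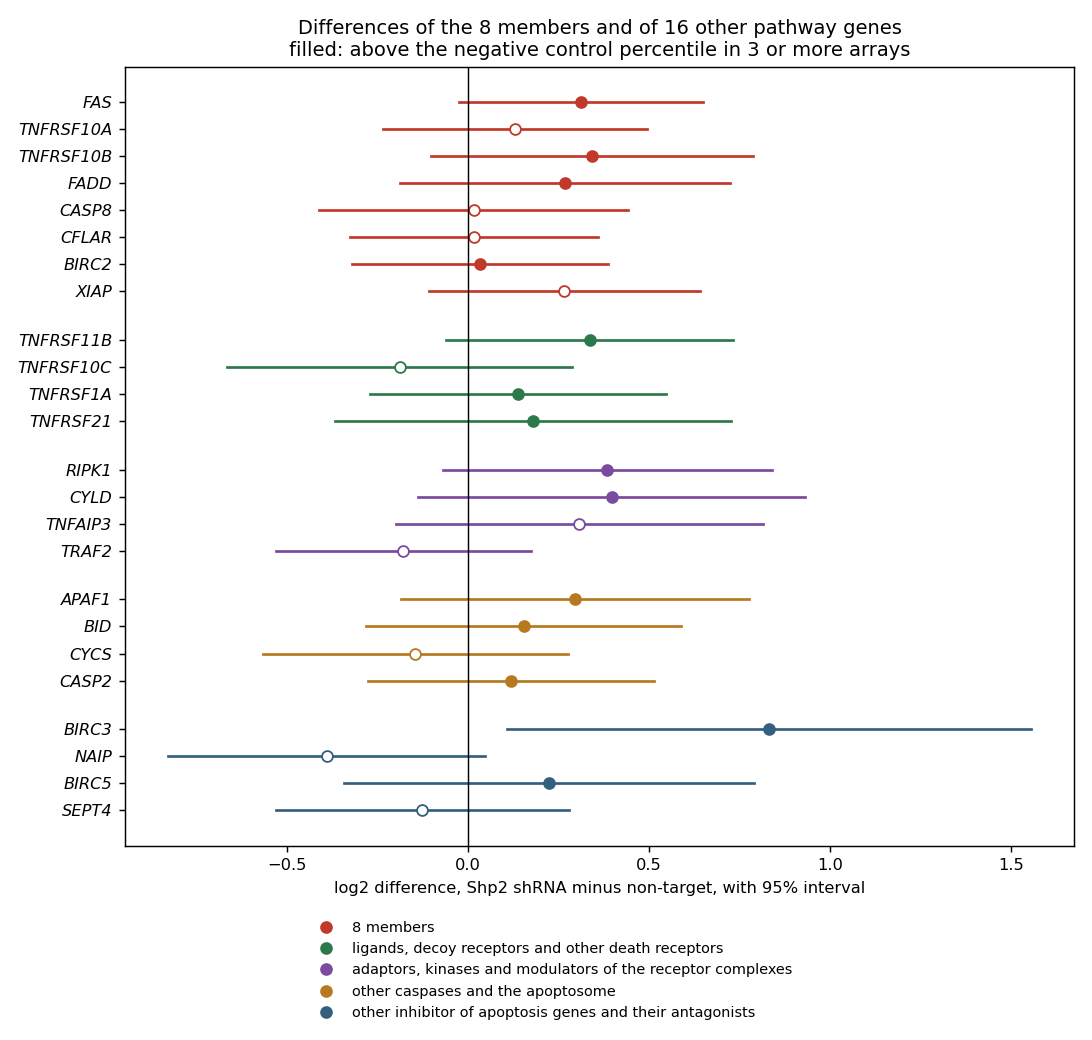
Log2 difference (Shp2 shRNA minus non-target) with its 95% interval for the 8 genes and for 4 genes from each of 4 other lists of the pathway, coloured by list; filled points exceeded the background level in at least 3 arrays. Of the intervals shown, only that of BIRC3 (0.11 to 1.56) does not reach 0.

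The tumours were also checked for the labelled cell type and for others. Of 12 melanoma and neural crest genes, S100B, CSPG4, AXL and VIM exceeded the background level in all 6 arrays, SOX10 in 3 and 7 genes in 0 arrays. Those 7 were MITF, MLANA, PMEL, TYR, DCT, MCAM and NGFR. The pigment cell genes of the list, and also MCAM and NGFR, were thus not above background. S100B, a neural crest marker, averaged 8.63 ± 0.44 in Shp2 shRNA and 8.88 ± 0.44 in non-target tumours (SD, n = 3 each), and 0 of the 7 kept genes of that list rose or fell. The summed linear level of the list was 1286 to 1621 in Shp2 shRNA and 1232 to 1758 in non-target tumours.

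Myeloid, endothelial, fibroblast and lymphoid markers were read from rows named by human gene symbols, while the host cells are from the mouse. How far such rows read mouse transcripts was not tested, so a low signal does not measure host cells. Of 7 myeloid markers, 6 lay below the background level in all arrays, the leukocyte marker PTPRC among them. Only CD68 was kept, at 7.71 ± 0.63 in Shp2 shRNA and 7.30 ± 0.50 in non-target tumours (SD, n = 3 each), and it did not pass the test. The list summed to 172 to 373 in Shp2 shRNA and 143 to 230 in non-target tumours. All 4 endothelial markers in the table, with sums of 46.9 to 48.0 in Shp2 shRNA and 41.7 to 45.8 in non-target tumours, were below the background level. So were all 5 lymphoid markers, with sums of 66.1 to 75.0 in Shp2 shRNA and 67.0 to 75.8 in non-target tumours. Of 6 fibroblast markers 5 were below it, PDGFRB excepted, and their sums were 163 to 228 in Shp2 shRNA and 185 to 194 in non-target tumours. Of 7 stress genes, 0 passed the adjusted test and 1 had an unadjusted p under 0.05, with sums of 874 to 1186 in Shp2 shRNA and 761 to 1261 in non-target tumours. That gene was EGR1, an immediate early gene, named after its value was seen, at 7.23 ± 0.29 in Shp2 shRNA and 6.82 ± 0.10 in non-target tumours (SD, n = 3 each), a difference of 0.41 with an unadjusted limma p of 0.049 and overlapping groups. The part of these cell types and of stress in the differences above was not tested.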

How the data were processed

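Expression was measured with 1 array per tumour, biotin labelled on a standard Affymetrix protocol per the labels' protocols. The authors deposited GCRMA values, which correct background, normalize and summarise probes, per the submitters' processing notes; the base of the log scale is not stated and the deposited values (0.0493 to 13.3) were read as log2. The array design is not given in the sources used here. GCRMA assumes that most genes do not differ, and it shrinks differences of dim probes. The 2 deposited tables held the same values (largest difference 0).

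From the 53617 rows, 26419 carried 1 gene symbol, and the row of highest mean stood for each of 24494 genes. Genes above a log2 value of 4 in at least 3 of 6 arrays (12541) were fitted with limma 3.58.1 (lmFit and eBayes, R 4.3.3), with Benjamini-Hochberg adjustment over all of them, two-sided, at 0.05. The script was tested on simulated data with independent noise and no array contrast, so that test does not bear on the contrast described above. The number of arrays, 3 a group, limits the precision. Detection calls were not used.

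The members and lists were chosen with earlier results of these data known. Named are the 8 genes, PTPN11 and up to 4 kept genes of smallest p in each of 4 lists. Also named are the 3 genes closest in profile to the most variable of the 8. The kept marker of highest mean is named for the melanoma, myeloid and fibroblast lists, but not for the endothelial, lymphoid and stress lists. Other ligand, caspase, antisense and marker genes were added after their values were seen. Symbols are the file's, with 1 stored as a date read as SEPT4 from its description. Alternatives changed the filter, the row per gene, the normalization, the variance model, the replicate block, a covariate and the arrays used.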

Additional observations from a re-analysis of the deposited data

How the results depend on the processing

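With 3 samples a group, it could not be settled if the sample numbers pair the tumours. Deviations of same-numbered samples from their group means correlated at 0.42, -0.03 and 0.17. Samples of unlike number correlated at -0.43 to 0.33. The 0.42, for the samples numbered 1, was the highest of all, but Shp2 shRNA tumour 2 correlated best with non-target tumour 3 (0.33). With the number as a replicate block, 5 genes passed the threshold instead of 1, and none of the 8 genes did. Without both arrays numbered 1, 2 genes passed. The count was 0 without a filter, after quantile normalization, after median centring, in ordinary least squares and with the contrast covariate, and 0 to 1 with 1 array left out. PTPN11 was -2.05 without a filter (limma adjusted p = 0.079), -2.09 after quantile normalization (0.077), -2.10 after median centring (0.084), -2.05 in ordinary least squares (1.00) and -2.13 with the covariate (0.059), and -2.19 to -1.86 with 1 array left out. The cause of these losses was not tested, except that the test without a filter adjusts over more genes. Median centring turned CASP8 to -0.032, CFLAR to -0.029 and BIRC2 to -0.014, and array weights, whose estimation stopped before it converged, turned CASP8 to -0.033. CFLAR was -0.0017 without both arrays numbered 1. BIRC2 was -0.0059 after quantile normalization and -0.063 with the covariate, which also gave -0.041 for BID and -0.078 for BIRC5. With 1 array left out, CASP8 ranged from -0.14 to 0.14, CFLAR from -0.026 to 0.10, BIRC2 from -0.037 to 0.10, TNFRSF1A from -0.010 to 0.27, TNFRSF21 from -0.10 to 0.43, BID from -0.0045 to 0.28, CASP2 from -0.0019 to 0.23 and BIRC5 from -0.067 to 0.46. Differences above 0 numbered 3 of 3 genes kept at a log2 value of 6 and 4 of 4 kept at the level of the negative controls. Of all genes kept by those filters, 69.6% and 68.7% were above 0. The count was 5 of 8 after median centring and 6 to 8 with 1 array left out. With 1 array left out, 46.3% to 67.9% of all kept genes were above 0. Groups without overlap numbered 1 under each of those filters and 2 to 3 with 1 array left out, where 5.54% to 16.5% of all kept genes had Shp2 shRNA above non-target without overlap, against 3.86% with all arrays. Of all kept genes 62.0% were above 0, against 51.4% after median centring, 42.6% with the covariate and 46.3% without non-target array 1. TNFRSF10A, CASP8 and CFLAR are limited by a signal within the range of the negative controls. XIAP, above the background level in 2 arrays, is limited by a signal near that level.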
